A study of Mus musculus with 7 samples.

Results

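The genes described here are Yy1, which encodes the zinc finger transcription factor Yin Yang 1, and the genes of 9 proteins that belong to the polycomb and INO80 complexes with which YY1 is known to work: Rnf2, Ring1, Bmi1 and Rybp of polycomb repressive complex 1 (PRC1), Eed, Ezh2 and Suz12 of polycomb repressive complex 2 (PRC2), and Ino80c and Ruvbl1 of INO80. They were chosen by symbol. Every probe set of the array whose platform annotation gave exactly 1 gene symbol, that of 1 of these genes, was taken. This gave 23 of the 22626 probe sets tested and covered 9 of the 10 genes, out of 12393 genes on the array. The only Rybp probe set carried a second symbol, that of a Rybp pseudogene, and its values are not given. Expression was measured in total RNA of the soleus, a slow postural hindlimb muscle, on 7 Affymetrix arrays, of which 3 were wild type and 4 carried the label Yin Yang 1 (YY1) knockout. All mice were 6 months old and of mixed C57Bl/6 and 129 background. The sources used here do not give the removed part of Yy1, the cells it was removed from, the driver or the sex of the animals. Separate animals for each array are not stated, so p-values measure only the spread between these samples, which may be technical.

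YY1 binds DNA through its zinc fingers at sites with a CCAT core and can activate or repress. It is the mammalian relative of the fly polycomb recruiter Pho, RYBP can bridge it to PRC1, and INO80 serves it as a coactivator that moves nucleosomes. PRC1 attaches ubiquitin to a histone, PRC2 methylates another, and both marks keep developmental genes such as the Hox genes silent. In skeletal muscle YY1 is known as a partner of the coactivator PGC-1alpha at mitochondrial genes.

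The 250 bases before the annotated start were available from RefSeq (build GRCm38.p6) for 8 of the 10 genes, all but Rybp and Ino80c. They were searched on both strands for the YY1 core GCCATNTT. It was found in 1 of the 8, Bmi1, and in 3.91% of all 32851 windows of this length. The windows of Bmi1, Rnf2 and Ring1 are shown because Bmi1 holds the match, Rnf2 is the partner gene with 2 probe sets called lower, and Ring1 is the paralogue of Rnf2. Capitals mark the match to the core, which ends in TTTT on the printed strand and begins 170 bases before the start.
Bmi1, chr2:18676768-18677017, plus strand: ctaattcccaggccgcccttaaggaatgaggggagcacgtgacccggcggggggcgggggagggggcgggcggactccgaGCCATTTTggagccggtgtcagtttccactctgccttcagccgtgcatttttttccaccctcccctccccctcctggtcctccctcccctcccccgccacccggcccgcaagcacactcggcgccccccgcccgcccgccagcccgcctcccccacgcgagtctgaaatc
Rnf2, chr1:151500992-151501241, minus strand: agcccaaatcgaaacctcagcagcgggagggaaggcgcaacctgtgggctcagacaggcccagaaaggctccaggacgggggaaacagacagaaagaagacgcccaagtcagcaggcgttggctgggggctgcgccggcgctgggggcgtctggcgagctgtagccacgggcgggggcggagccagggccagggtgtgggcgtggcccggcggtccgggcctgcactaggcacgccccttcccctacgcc
Ring1, chr17:34024681-34024930, minus strand: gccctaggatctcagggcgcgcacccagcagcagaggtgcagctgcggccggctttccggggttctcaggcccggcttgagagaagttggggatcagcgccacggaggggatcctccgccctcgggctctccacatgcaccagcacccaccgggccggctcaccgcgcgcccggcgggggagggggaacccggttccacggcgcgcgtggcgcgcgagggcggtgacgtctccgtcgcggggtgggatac
A match is a description of letters and not of binding, which was not measured. The G and C content of the 8 windows lay between 42.4% (Ruvbl1) and 81.2% (Yy1), and 7 of the 8 were above 52.4%, the median of all windows.

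Values are given as log2(intensity + 1), and a fold change is the knockout mean minus the wild type mean on that scale. Each change was tested with limma over all 22626 probe sets, with p-values adjusted by Benjamini-Hochberg and called below 0.05. Of all probe sets, 14.3% were called lower and 14.3% higher in knockout, 28.6% in all. Of the 23 probe sets described here, 6 fell, 2 rose and 15 did not pass the test, with a median fold change of -0.060 (0.0069 over all probe sets). Of these calls, 3 of the falls were in Yy1 itself. Among the other 19 probe sets, 3 fell (15.8%) and 2 rose (10.5%), shares near the background. An alternative left out knockout arrays 2 and 3, chosen after the data were seen because these were the lowest for several of the genes. In it 3 of the 23 probe sets fell and 1 rose, and 19.1% of all probe sets were called, against 28.6% with all arrays. The groups' values did not overlap in 9 probe sets that were lower and 4 that were higher in knockout, where 17.9% and 18.4% of all probe sets, or 36.4% in either direction, were so separated. The 9 include the 3 called Yy1 probe sets, so this is not a count of the partner genes alone.

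Soleus is a mixture of cells, and in such bulk RNA fewer cells of a type and less RNA per cell cannot be told apart. Defining genes of muscle fibres were bright on every array. Of 10, 3 rose and 2 fell, with Des, of the filament protein desmin, at 0.54 (SE 0.05, adjusted p = 0.000257), the slow troponins Tnni1 at 0.40 and Tnnt1 at 0.21, myoglobin (Mb) at -0.41 and muscle creatine kinase (Ckm) at -0.21. Without wild type array 1, 5 of them rose, and Tnnt1 lost its call without wild type array 2 or 3 or knockout array 1 or 2 (adjusted p = 0.0537 to 0.0902). Summed fibre markers were 323915 to 339351 in wild type and 338476 to 348494 in knockout. All 14 macrophage markers rose, among them Cd68 (2.05), Ptprc (1.72) and Mrc1 (1.32), and their summed intensity was 3901 to 4699 in wild type and 8346 to 13877 in knockout. With 1 array left out, 10 to 13 of them were called higher. Marker counts take the brightest probe set of a gene, by which 16.3% of all genes were called higher and 15.5% lower. All 8 endothelial markers fell, among them the vascular cadherin Cdh5 (-1.04), Tie1 (-0.96) and Esam (-0.87), with sums of 4839 to 5142 and 2434 to 2736. Of 7 fibroblast markers 5 rose, with Col3a1 at 1.27, Col1a1 at 0.96 and Dpt at 0.46 (sums of 20020 to 23575 and 25607 to 38169; 3 rose when either of wild type arrays 1 and 2, or knockout array 2, was left out). Of 6 satellite cell markers 2 rose, Myf5 (0.52) and Cdh15 (0.45), with sums of 1916 to 2006 and 1997 to 2470. Of 3 adipocyte markers 1 fell, Lep (-1.88), with sums of 1800 to 3529 and 1105 to 2300. No marker was at 0 on any array, but neither was any other probe set. The lowest log2 value on any array was 3.63, so this does not show that a marker was detected. Des, Mb, Cdh5 and Col1a1 each had a second probe set, which went the same way without a call (0.35, -0.094, -0.20 and 0.47). The part of these cell types in the changes of the members was not tested.

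Yy1 transcript was lower in every knockout array by 3 of its 4 probe sets. Probe set 1422569_at measured 9.86, 9.67 and 9.71 in the wild type arrays and 8.41, 7.83, 7.83 and 8.10 in knockout arrays 1 to 4. The groups lay far apart, and the signal in knockout was 30.7% of wild type (fold change -1.70, SE 0.14, limma adjusted p = 0.00012). Probe set 1435824_at measured 9.32, 9.20 and 9.62 in wild type and 8.39, 8.24, 8.48 and 8.29 in knockout. It left 49.2% (fold change -1.02, SE 0.11, limma adjusted p = 0.000271), with no overlap between the groups. Probe set 1422570_at measured 7.16, 6.52 and 6.77 in wild type and 6.19, 5.79, 6.16 and 6.05 in knockout, which left 58.8% (fold change -0.77, SE 0.15, limma adjusted p = 0.00629). For each of these 3 a two-sided exact permutation test gave p = 0.0286, the lowest value possible with 3 arrays against 4.

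**Figure D1:**
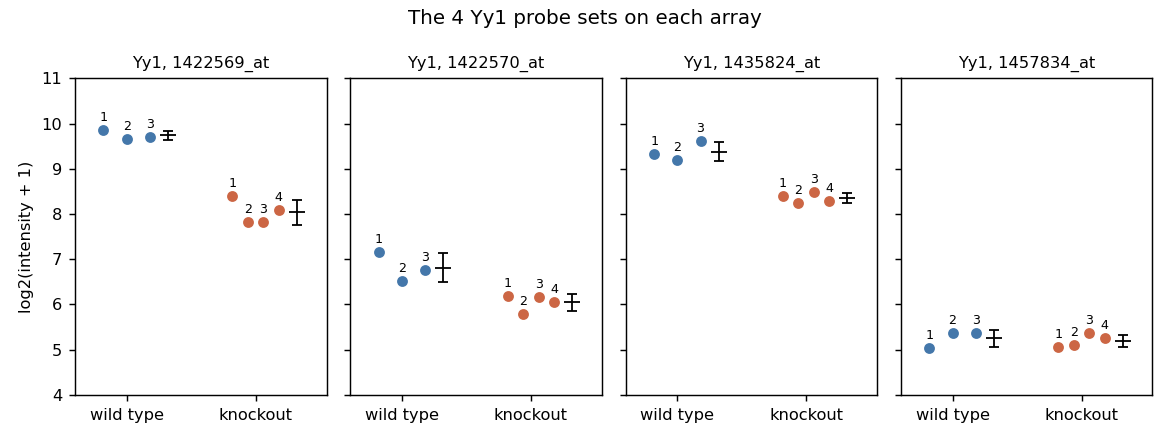
The 4 Yy1 probe sets on each array, with log2(intensity + 1) on the vertical axis, the 3 wild type arrays in blue and the 4 knockout arrays in orange, numbered by array; the bar beside each group is its mean and SD. In the first 3 panels every knockout array is below every wild type array, and in the fourth, at 5.04 to 5.37, the groups overlap.

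The fourth probe set, 1457834_at, measured 5.04, 5.36 and 5.37 in wild type and 5.07, 5.10, 5.36 and 5.26 in knockout. Its groups overlapped (fold change -0.060, 95% interval -0.30 to 0.18, limma adjusted p = 0.711), and its mean was below 7.16, the median of all probe sets. Whether it detected Yy1 above background was not tested.

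The changes of the Yy1 probe sets were also set against each other. The difference of 2 probe sets within each array was compared between the groups by a two-sided exact permutation test, for all 6 pairs. Probe set 1422569_at fell by 0.94 more than 1422570_at (exact p = 0.0286, 0.0429 adjusted over the 6 pairs), whose wild type values were lower and mostly below the median of all probe sets; the part of background in the smaller fall was not tested. Its difference from 1435824_at, of 0.68, had an exact p of 0.0571 (0.0685 adjusted). The falls of 1422570_at and 1435824_at differed by 0.26 (exact p = 0.257). The 3 pairs with 1457834_at are not read, since that probe set was not shown to be above background. These 3 pairs each had an exact p of 0.0286 and entered the adjustment, which lowered the adjusted values of 0.0429 and 0.0685. Those adjusted values are therefore not read either, and an adjustment over the remaining pairs alone was not made. The positions of the probes and of the deletion are not known here, so none of these percentages measures how many nuclei kept an intact gene.

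In PRC1, Rnf2 fell. Rnf2 encodes RING1B, the ubiquitin ligase of the complex. Its brightest probe set, 1424873_at, measured 9.44, 9.42 and 9.47 in wild type and 9.20, 8.80, 8.84 and 9.01 in knockout. Every knockout array was below every wild type array, at 71.5% of the wild type signal (fold change -0.48, SE 0.10, limma adjusted p = 0.00634). Probe set 1451519_at measured 8.38, 8.38 and 8.31 in wild type and 8.17, 7.72, 7.84 and 7.94 in knockout, again without overlap (fold change -0.44, SE 0.10, limma adjusted p = 0.011). The fold changes of these 2 probe sets differed by 0.039 (exact permutation p = 0.429). Without knockout arrays 2 and 3 they were -0.34 (limma adjusted p = 0.0288) and -0.31 (adjusted p = 0.0585).

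The other 3 Rnf2 probe sets had means below the median of all probe sets and did not pass the test. Probe set 1448042_s_at measured 5.17 to 5.28 in wild type and 5.02 to 5.09 in knockout (fold change -0.16, limma adjusted p = 0.0538). For 1448041_at and 1448043_x_at the fold changes were -0.14 and -0.092, and the groups overlapped. In Affymetrix naming the endings s and x mark probe sets whose probes can match more than 1 transcript.

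Bmi1 encodes the ring finger protein that pairs with RING1B and supports its ligase activity. Probe set 1448733_at measured 10.31, 10.25 and 10.42 in wild type and 10.11, 9.61, 9.54 and 10.11 in knockout. The knockout arrays formed 2 pairs, with arrays 1 and 4 just below wild type and arrays 2 and 3 lower. The fold change was -0.49 (SE 0.15, limma adjusted p = 0.0442). This call was lost without wild type array 1 (adjusted p = 0.108), 2 (0.0943) or 3 (0.144), without knockout array 2 (0.107) or 3 (0.0883), and without both of these knockout arrays, where the fold change was -0.22. Probe set 1417493_at measured 10.14, 10.01 and 10.24 in wild type, 9.79 and 9.70 in knockout arrays 2 and 3, and just under the lowest wild type value in knockout arrays 1 and 4. It did not pass (fold change -0.26, limma adjusted p = 0.0774).

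Ring1, the paralogue of Rnf2 and the alternative ligase of PRC1, measured 8.00, 8.01 and 8.00 in wild type and 8.00, 7.95, 8.06 and 7.98 in knockout. The difference was -0.0083, with a 95% interval of -0.12 to 0.11 (limma adjusted p = 0.923), and its sign changed with the arrays centred on their median, with quantile normalization and without knockout array 2.

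**Figure D2:**
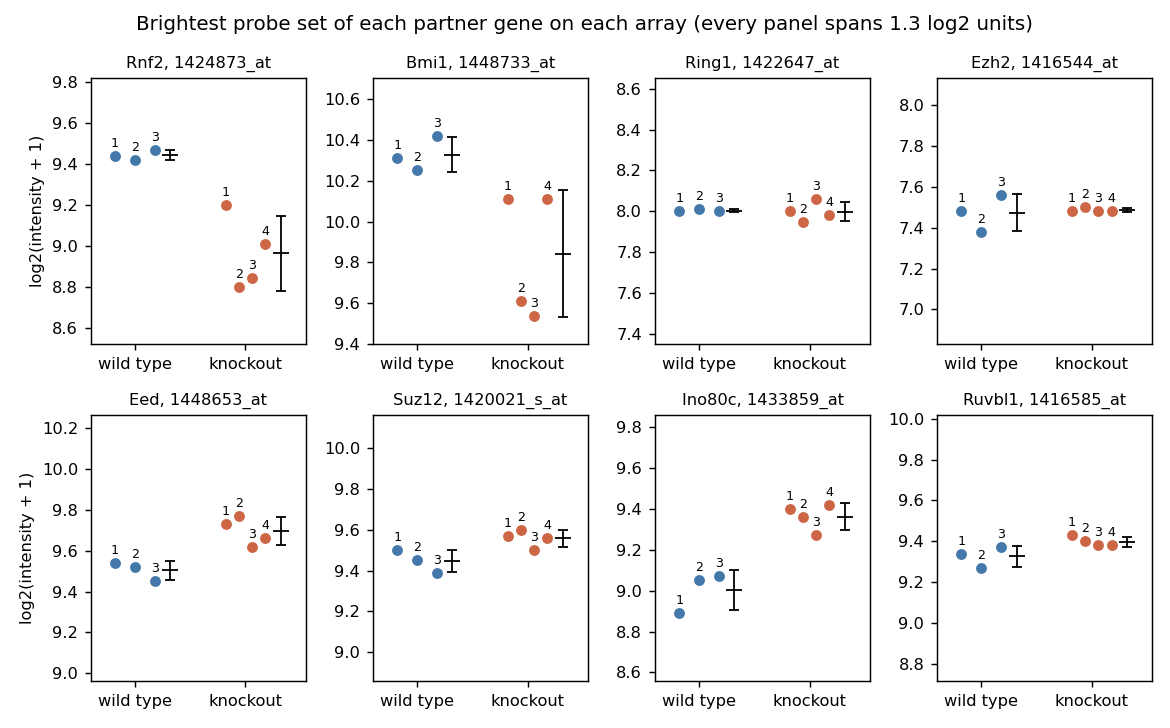
The brightest probe set of each of the 8 partner genes on each array, as log2(intensity + 1), with the same vertical span in every panel; points are arrays, numbered within wild type (blue) and knockout (orange), and bars are mean and SD. Rnf2 and Bmi1 are lowest in knockout arrays 2 and 3, Ino80c is higher in all 4 knockout arrays, and Ring1 and Ezh2 overlap.

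Within the knockout group, arrays 2 and 3 were the lowest for Yy1 by 1422569_at, for both called Rnf2 probe sets and for Bmi1 by 1448733_at. Array 1 was the highest of the 4 for Yy1 by 1422569_at and for both of these Rnf2 probe sets. The other called Yy1 probe sets did not follow this order: in 1422570_at and 1435824_at arrays 2 and 4 were the lowest, and in the latter array 3 was the highest at 8.48. Ino80c, which was higher in knockout, was also lowest in arrays 2 and 3 among the knockout arrays. The knockout values spread over 0.40 for Rnf2 by 1424873_at, where the wild type values spread over 0.048. Summed macrophage markers in knockout arrays 1 to 4 were 8346, 10232, 13877 and 9019, highest in arrays 2 and 3, and summed fibroblast markers were 25607, 33377, 38169 and 27796. With 4 arrays no correlation is given, and the part of these markers in the spread was not tested.

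Of the 9 probe sets of the core PRC2 genes, those of the methyltransferase complex, 1 passed the test. Ezh2, the catalytic subunit, measured 7.48, 7.38 and 7.56 in wild type and 7.48, 7.50, 7.48 and 7.48 in knockout, a difference of 0.014 with a 95% interval of -0.12 to 0.15 (limma adjusted p = 0.88). Ezh2 is known to be high in dividing cells. Of 16 markers of dividing cells, 6 rose and none fell, where 16.3% of all genes were called higher by the brightest probe set. Among those that rose were Birc5 at 0.73 (adjusted p = 0.000141), Mki67 at 0.70 and Cdk1 at 0.63. These named genes were dim, with means over the arrays of 4.90, 5.27 and 5.78, below 7.16, the median of all probe sets. Whether they were detected above background was not tested. The summed intensity of the 16 markers was 2763 to 3064 in wild type and 3292 to 3592 in knockout. Leaving out wild type array 3 left 2 of them called, and leaving out wild type array 2, or knockout array 3, left 3. In these fits 22.4%, 21.6% and 25.4% of all probe sets were called in either direction, against 28.6% with all arrays. Cdk1 failed on leaving out wild type array 2 (adjusted p = 0.063) or 3 (0.0622).

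Suz12, the subunit that holds PRC2 together, had 6 probe sets, and none passed the test. Their fold changes ran from -0.13 to 0.11 and their limma adjusted p from 0.165 to 0.931. The brightest, 1420021_s_at, measured 9.50, 9.45 and 9.39 in wild type and 9.57, 9.60, 9.50 and 9.56 in knockout, a difference of 0.11 with a 95% interval of -0.012 to 0.23. The lowest knockout array lay at the level of the highest wild type array.

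Eed encodes the subunit that reads the methyl mark. Probe set 1448653_at measured 9.54, 9.52 and 9.45 in wild type and 9.73, 9.77, 9.62 and 9.66 in knockout. All knockout arrays were higher, by 1.14-fold on average (fold change 0.19, SE 0.06, limma adjusted p = 0.0412). The call was lost when any array except knockout array 3 was left out, with an adjusted p of 0.063 to 0.124, and in the fit with a replicate block (0.0964). The second, dim probe set measured 4.97, 5.14 and 5.14 in wild type and 5.25, 5.14, 5.14 and 5.14 in knockout and did not pass (fold change 0.085, limma adjusted p = 0.372).

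**Figure D3:**
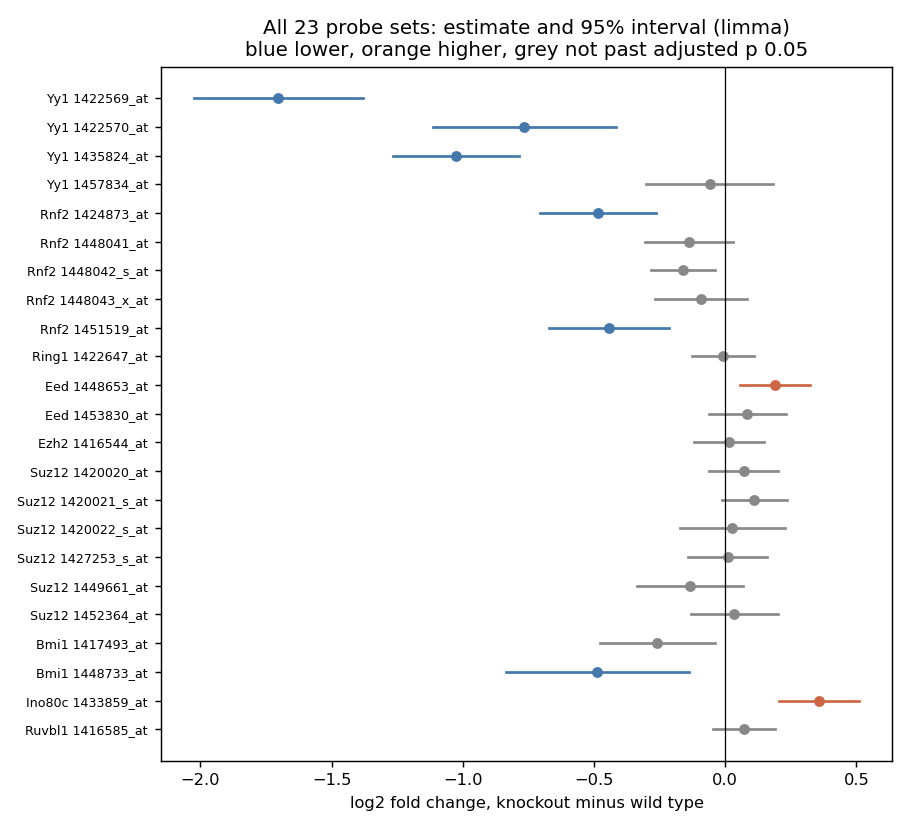
Log2 fold change of each of the 23 probe sets, knockout minus wild type (points), with its 95% interval from limma (lines, not adjusted for the number of probe sets); blue points fell, orange points rose and grey points did not pass an adjusted p of 0.05. The 3 changes below -0.5 are all in Yy1, and the rise of Ino80c (0.36) is the larger of the 2 rises.

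In INO80, Ino80c rose. It encodes a small subunit of the nucleosome remodelling complex. Its single probe set, 1433859_at, measured 8.89, 9.05 and 9.07 in wild type and 9.40, 9.36, 9.27 and 9.42 in knockout. The groups did not overlap, and knockout was 1.28-fold higher (fold change 0.36, SE 0.07, limma adjusted p = 0.00446). The call held in all 17 alternatives tried, with an adjusted p of 0.00234 to 0.0405. Ruvbl1, an ATPase that INO80 shares with other complexes, measured 9.34, 9.27 and 9.37 in wild type and 9.43, 9.40, 9.38 and 9.38 in knockout. It did not pass (fold change 0.070, 95% interval -0.048 to 0.19, limma adjusted p = 0.356), although no knockout array was below a wild type array.

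The intervals of the genes that did not pass limit how large a change could have been missed. For Ring1, Ezh2 and Ruvbl1 all bounds lay within 0.19 of 0 in log2 units. For the 6 Suz12 probe sets they lay between -0.34 and 0.23. A missed threshold does not show that these genes were equal in the 2 groups.

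The remaining genes of these complexes were taken from lists of polycomb and INO80 subunits, with the brightest probe set standing for a gene. By this measure 15.5% of all genes were called lower and 16.3% higher, 31.8% in all. Of 37 measured genes of PRC1, PRC2, INO80 and the polycomb-related PhoRC and PR-DUB complexes, 7 rose (18.9%), 3 fell (8.11%) and 27 did not pass, with a median of 0.071 (0.013 over all genes). Within each complex these counts moved by no more than 1 gene when an array was left out.

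In PRC1, 2 of 12 other genes rose and 1 fell. Pcgf6, an alternative to Bmi1 in variant PRC1, measured 7.60, 7.50 and 7.72 in wild type and 8.33, 8.36, 8.31 and 8.23 in knockout. Its rise of 0.70 (SE 0.07, limma adjusted p = 0.00022) was opposite in direction to Bmi1, and another of its 3 probe sets also rose. The polyhomeotic gene Phc2 rose by 0.26 (adjusted p = 0.0142; 0.0529 without wild type array 3). Pcgf1, a further alternative to Bmi1, changed by -0.24 (adjusted p = 0.0478), which failed without wild type array 1 (0.139) or 3 (0.151) or knockout array 2 (0.108), 3 (0.0703) or 4 (0.105).

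In PRC2, 2 of 8 other genes rose and 1 fell. Mtf2 encodes a polycomb-like protein that helps PRC2 find its targets. Its brightest probe set measured 9.49, 9.40 and 9.44 in wild type and 8.59, 8.63, 8.65 and 8.44 in knockout. The groups lay far apart (fold change -0.86, SE 0.07, limma adjusted p = 9.21e-05), and all 4 Mtf2 probe sets fell, by 0.51 to 0.86. The histone-binding subunit Rbbp4 rose by 0.45 (SE 0.07, adjusted p = 0.00209), and Aebp2, a cofactor that stimulates PRC2, by 0.27 (adjusted p = 0.0365). The Aebp2 call was lost without any of the wild type arrays (adjusted p = 0.0707 to 0.111) or without knockout array 2 (0.0884) or 4 (0.0689), while its second probe set rose by 0.47.

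**Figure D4:**
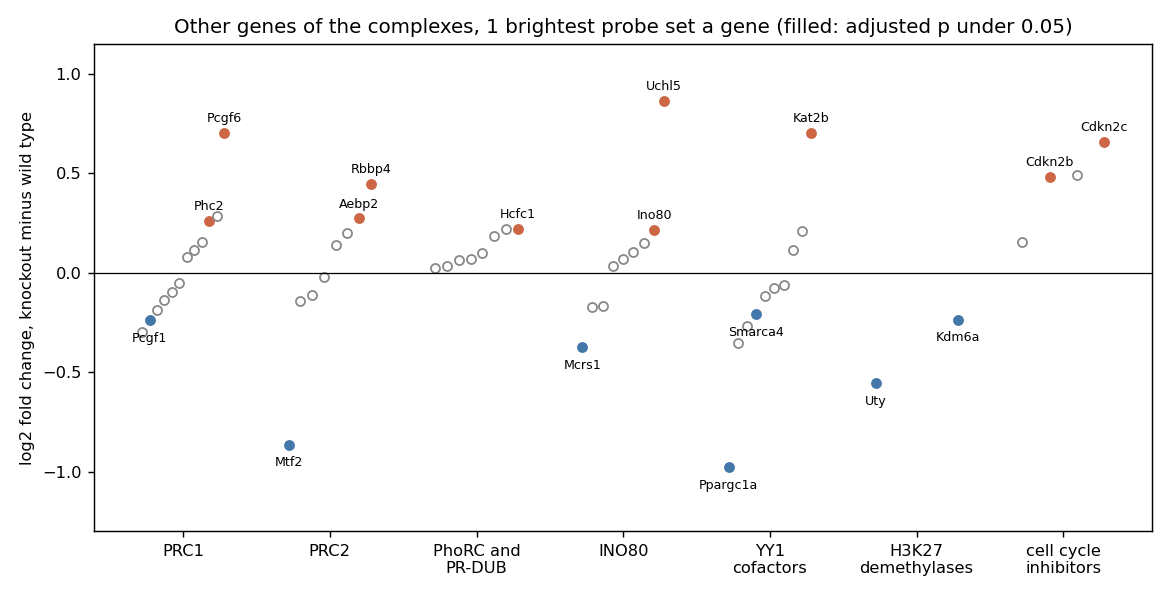
Log2 fold change of the other genes of each complex and of related lists, knockout minus wild type, 1 brightest probe set a gene; filled points passed an adjusted p of 0.05 (orange higher, blue lower), open points did not, and the named genes are the filled ones. Uchl5 (0.86), Pcgf6 and Kat2b (0.70 each) are the highest, and Ppargc1a (-0.98) and Mtf2 (-0.86) the lowest.

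In INO80, 2 of 9 other genes rose and 1 fell. Uchl5, a deubiquitinase that associates with INO80 and with the proteasome, measured 10.49, 10.50 and 10.38 in wild type and 11.27, 11.43, 11.09 and 11.50 in knockout. It rose by 0.86 (SE 0.10, limma adjusted p = 0.000459), and its second probe set by 0.51. Ino80, the ATPase of the complex, rose by 0.21 (adjusted p = 0.0313), which failed without wild type array 1 (0.0563) or 2 (0.0965) or knockout array 1 (0.0574), 2 (0.073) or 4 (0.0613); its other, dimmer probe set rose by 0.50. Mcrs1 changed by -0.37 (SE 0.06, adjusted p = 0.00208). Of 8 genes of the PhoRC and PR-DUB lists, 1 rose and none fell. That gene, Hcfc1, at 0.22 (adjusted p = 0.0258), lost its call without wild type array 2 (0.0823) or 3 (0.0873) or knockout array 2 (0.0608) or 4 (0.0633). The other 2 of its 3 probe sets were at -0.23 and -0.14, both without a call.

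Among 10 other cofactors of the YY1 protein, 1 rose and 2 fell, where 16.3% of all genes were called higher and 15.5% lower. Kat2b, the acetyltransferase PCAF, measured 11.94, 11.85 and 11.86 in wild type and 12.50, 12.62, 12.51 and 12.70 in knockout (fold change 0.70, SE 0.07, limma adjusted p = 0.000189). Both of its probe sets rose. Ppargc1a, of PGC-1alpha, measured 11.13, 11.19 and 11.23 in wild type and 10.55, 9.23, 10.65 and 10.38 in knockout, with array 2 far below the others. Its change of -0.98 (SE 0.31, adjusted p = 0.0435) was -0.65 without knockout array 2, where it passed at an adjusted p of 0.00176. The call was lost without any of the wild type arrays (0.105 to 0.126) or without knockout array 4 (0.0687). The remodelling ATPase gene Smarca4 changed by -0.21 (adjusted p = 0.032) and lost its call without any of the wild type arrays (0.0603 to 0.103) or without knockout array 3 (0.0616) or 4 (0.0733). Zfp42, a relative of Yy1 in sequence, measured 3.84 to 3.99 over all arrays, near the lowest value on any array of 3.63, and its change was 0.014 (adjusted p = 0.873).

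Of 3 listed demethylases that remove the mark of PRC2, 2 were measured, and both were called lower by their brightest probe set, where 15.5% of all genes were. Without knockout arrays 2 and 3, 1 of them was called. Kdm6a fell by 0.24 (SE 0.05, adjusted p = 0.0119) and by 0.49 in its second probe set, with 8.17, 8.28 and 8.14 in wild type and 7.96, 7.95, 7.95 and 7.98 in knockout by the brighter one. Its Y-linked relative Uty changed by -0.55 (SE 0.11, adjusted p = 0.00652) in 1 of 2 probe sets, and the other was at -0.12 (adjusted p = 0.476).

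Hox genes, the classical targets of polycomb, moved in both directions. Of 31 measured, 8 fell (25.8%) and 4 rose (12.9%), with a median of -0.14. Of all genes, 15.5% were called lower and 16.3% higher by the same measure. Hoxa5 measured 8.63, 8.11 and 8.20 in wild type and 7.17, 6.63, 6.70 and 7.10 in knockout, a change of -1.41 (SE 0.17, limma adjusted p = 0.00056) without overlap. Hoxa7 changed by -0.52 (SE 0.07) and Hoxa3 by -0.61 (SE 0.08). On the other side, Hoxc9 measured 9.51, 9.46 and 9.42 in wild type and 9.92, 10.13, 9.94 and 9.99 in knockout (fold change 0.53, SE 0.07, adjusted p = 0.000617). Hoxd9 rose by 0.45 and Hoxd8 by 0.39; the latter failed on leaving out wild type array 1 (adjusted p = 0.0518) or 3 (0.0651), and 2 Hox genes rose without wild type array 3. By cluster, 5 of 9 Hoxa genes fell and none rose, 2 of 9 Hoxb genes fell and none rose, 2 of 6 Hoxc genes rose and none fell, and 2 of 7 Hoxd genes rose and 1 fell. Hoxa3 and several other called Hox genes, in both directions, were dim, with means below 7.16, the median of all probe sets. Their means over the arrays ran from 5.26 to 5.77. Differences between the clusters were not tested.

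**Figure D5:**
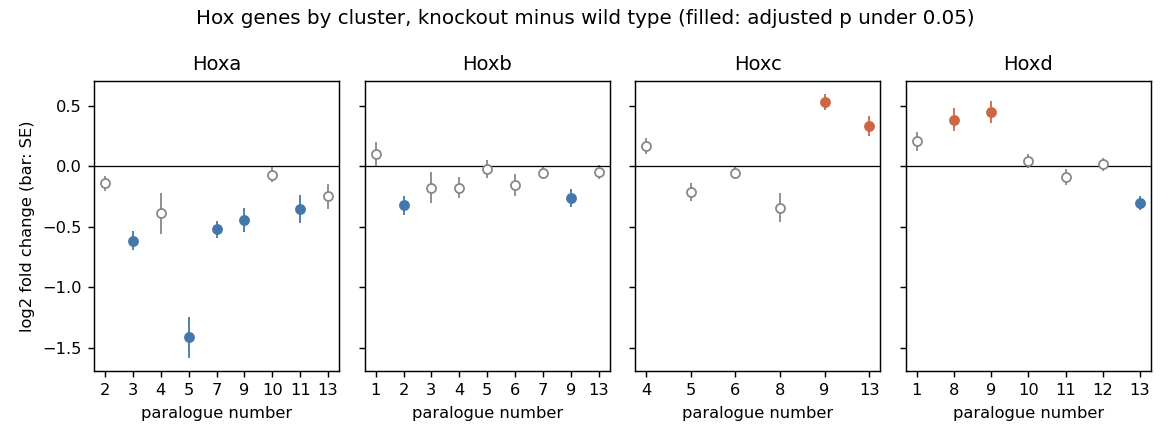
Log2 fold change of each measured Hox gene, knockout minus wild type, by cluster and paralogue number (points, with SE as bars); filled points passed an adjusted p of 0.05 and open points did not. Hoxa5 at -1.41 is the lowest point, and the 4 filled points above 0 are in the Hoxc and Hoxd clusters.

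Of 4 cell cycle inhibitor genes listed here as held down by polycomb in dividing cells, 2 rose and none fell. By the brightest probe set 16.3% of all genes were called higher. Cdkn2c measured 7.68, 7.53 and 7.71 in wild type and 7.87, 8.48, 8.37 and 8.48 in knockout (fold change 0.66, SE 0.15, limma adjusted p = 0.0101). Cdkn2b rose by 0.48 (adjusted p = 0.0206) and lost its call without wild type array 1 (0.0741) or 2 (0.0854). The number that rose was 1 without wild type array 1 or 2, 3 without knockout array 1, 2 or 3, and none without knockout arrays 2 and 3 together. Cdkn2a, from the same locus as Cdkn2b and chosen here after its values were seen, measured 4.44, 4.80 and 4.71 in wild type and 4.88, 4.80, 4.73 and 4.80 in knockout, with overlap (fold change 0.15, adjusted p = 0.238).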

How the data were processed

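The authors deposited 1 intensity per probe set and array, on a linear scale, and RMA is named per the submitters' processing notes; which software and probe annotation were used is not stated. RMA normalizes between arrays and is known to compress differences of dim probe sets. Precision is limited by the number of arrays. Array medians lay between 139.1 and 143.0. Of 22690 probe sets, 64 controls were left out. Of the rest, 20380 had 1 gene symbol, 691 several and 1555 none; symbols were updated by Entrez identifier through a RefSeq table, which matched 20351 probe sets. Values were taken to log2(value + 1) and fitted with limma 3.58.1 (lmFit, eBayes, two-sided) in R 4.3.3, knockout against wild type, with no filter. Promoter windows were searched with exact motif matching; a longer YY1 motif was also searched earlier and is not reported here. No pair of arrays was a duplicate, with at most 1819 equal values. No scan or slide batch was examined. Groups came from the sample titles.

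Members and lists were chosen with earlier results of these data known. Text names all members and, per list, at most 3 called genes per direction, those of smallest p by the brightest probe set (2 uncalled genes where no gene was called). The scripts were tested on simulated data. The alternatives tried were other pseudocounts, array centring, quantile normalization, a filter on dim probe sets, 1 value per gene, another variance prior, the replicate number as a block and leaving out arrays.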

Additional observations from a re-analysis of the deposited data

Results flagged for a closer look

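In 67 probe sets of the members and named genes, the 4 knockout arrays were searched for 1 value far from the others, and 8 were found; chance alone gives about 1 in 20. Among members these were Rnf2 1448042_s_at in array 4 (5.02, others 5.08 to 5.09), Eed 1453830_at in array 1 (5.25, others 5.14), Ezh2 in array 2 (7.50, others 7.48) and Suz12 1449661_at in array 3 (4.20, others 4.52 to 4.54). None of these 4 probe sets was called, and in the first 3 the knockout values spanned little. In Eed 1453830_at and Ezh2 the other knockout values were equal, so any difference would have been flagged. The rate of 1 in 20 does not allow for such ties. Among the named genes they were Hoxa7 in array 4 (7.52, others 7.42 to 7.44), Ckm in array 1 (15.02, others 14.93 to 14.94), and Col1a1 (9.96, others 9.27 to 9.38) and Esam (8.91, others 8.68 to 8.71) in array 3.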

How the results depend on the processing

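The called fold changes of Yy1 1422569_at and 1435824_at, Rnf2 1424873_at and Ino80c kept their direction and their call under every alternative tried on them; with a gene's probe sets averaged, the dim ones included, Rnf2 was at -0.26 (adjusted p = 0.00915) in place of -0.48. Without knockout arrays 2 and 3 together, Yy1 1422570_at was at -0.69 (adjusted p = 0.0575), Rnf2 1451519_at at -0.31, Bmi1 1448733_at at -0.22 and Eed at 0.19, all without a call. Bmi1 1448733_at also lost its call with log2(value + 32) (-0.47, adjusted p = 0.058) and with arrays centred on their median (-0.48, adjusted p = 0.0541), and Eed with its probe sets averaged (0.14, adjusted p = 0.0669). Leaving out 1 array gave Bmi1 -0.58 to -0.39 and Eed 0.16 to 0.22. Among members, direction changed in these probe sets, none of them called: Ring1 (0.00033 with arrays centred, 0.0065 with quantile normalization, -0.029 to 0.0077 leaving out 1 array), Ezh2 (-0.035 to 0.060), and Suz12 1420022_s_at (-0.077 to 0.12), 1427253_s_at (-0.029 to 0.053) and 1452364_at (-0.0077 to 0.079).

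Member probe sets called lower numbered 5 to 6 leaving out 1 array, and 3 with the brightest probe set per gene, with probe sets averaged, or without knockout arrays 2 and 3. Those called higher numbered 1 to 2 leaving out 1 array, and 1 with probe sets averaged or without knockout arrays 2 and 3. Of all probe sets, 28.6% were called with all arrays, 21.6% to 27.5% leaving out 1 array, and 19.1% without knockout arrays 2 and 3. Over the whole table, 3240 probe sets were higher and 3237 lower; with p-values adjusted over genes alone these were 2103 and 1979 by the brightest probe set (2016 and 1925 with the adjustment over all probe sets) and 2039 and 2073 by the mean, and 2130 were higher without knockout arrays 2 and 3. In the polycomb, INO80, cofactor and target lists 26 probe sets rose and 26 fell. Leaving out 1 array gave 17 to 28 and 17 to 23. The brightest probe set per gene gave 15 and 15, probe sets averaged 16 lower, probe sets above the median level 17 lower, and leaving out knockout arrays 2 and 3 gave 17 higher.

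Arrays sharing a replicate number did not deviate together (r = 0.048, -0.098 and 0.011 for numbers 1, 2 and 3), so no pairing by number was seen in these values. The sample titles do not say what the numbers stand for. With the replicate number as a block and knockout array 4 left out, member probe sets called higher numbered 1, list probe sets called higher 16, and Eed was at 0.20 (adjusted p = 0.0964); the other member calls held. With 1 array left out, the exact test of the Yy1 probe sets against each other cannot reach 0.05 (smallest p 0.0667 or 0.1).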

Other observations

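The labels give no sex. The Y-linked gene Eif2s3y measured 10.51, 10.43 and 10.57 in wild type and 10.64, 9.17, 9.99 and 10.03 in knockout, and the brightest probe set of Xist, the transcript of the inactive X chromosome, measured 6.27 to 6.56 over all arrays. Eif2s3y was lowest in knockout array 2. Of 4 sex-linked genes measured, 1 fell, Uty, as given above, and none rose.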
